A study of Homo sapiens with 12 samples.

Results

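The p53 pathway was followed through 35 genes, chosen by name as direct p53 targets and close regulators of p53. The genes were grouped by role into p53 feedback, growth arrest, cell death, DNA repair, and metabolism and stress. The expression table listed 34 of the 35 genes among its 29696 genes, and SPATA18, a gene of mitochondrial quality control, was not in it. All 34 had a mean of at least 0.5 FPKM (fragments scaled by transcript length and library total) over the input libraries, and were tested together with the other genes that passed this filter, 12985 in all. The gene list and the rule used no measured value, but the list was drawn up with earlier results of these data known.

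The cells were A375, a human melanoma line, infected with a lentivirus that carried either a short hairpin RNA against ALKBH5 (shALKBH5) or a scramble hairpin (shCtrl in the labels). ALKBH5 is a demethylase that removes the N6-methyladenosine (m6A) mark from RNA, and the series addressed its part in melanoma progression. Each group had 3 input libraries of poly(A) RNA and 3 libraries immunoprecipitated with an m6A antibody (IP), and the labels give no age or stage. Each group came from 1 line, the sequenced hairpin is not named in the sources used here, and the labels do not say whether the numbered libraries came from separate cultures. The study's methods describe its experiments in general as independently repeated, without naming the sequencing libraries. The p-values measure the spread between these libraries, which may be technical. The input libraries summed to 212760 to 223231 FPKM, and their read depth is unknown. ALKBH5 itself averaged 3.48 ± 0.410 FPKM in shALKBH5 cells and 18.2 ± 0.962 FPKM in shCtrl cells (SD, n = 3 each), a log2 fold change of -2.36 (SE 0.0887).

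Of the melanocyte lineage markers, SOX10 was high in both groups, at 180.6 ± 0.754 FPKM in shALKBH5 cells and 184 ± 6.81 FPKM in shCtrl cells. The other 2 tested markers of the list were higher in shALKBH5 cells: S100B, a calcium-binding protein, at 82.1 ± 3.03 and 32.9 ± 1.35 FPKM (log2 fold change 1.32, limma adjusted p = 1.01e-06), and MITF, the melanocyte transcription factor, at 1.26 ± 0.332 and 0.777 ± 0.203 FPKM with overlapping groups (log2 fold change 0.63, limma adjusted p = 0.0475, and up to 0.148 over the settings tried). The pigment genes TYR, DCT and TYRP1 averaged under 0.5 FPKM over all libraries, as did PMEL, and MLANA was not in the table. Of 14 markers of keratinocytes, fibroblasts, leukocytes and endothelium, 10 were listed and 5 of these averaged under 0.5 FPKM. The summed level of those markers was 54.1 to 56.6 FPKM in shALKBH5 libraries and 26.3 to 28.7 FPKM in shCtrl libraries. Most of that sum was CD68, a lysosomal protein used as a macrophage marker, at 40.4 ± 2.06 and 16.2 ± 1.24 FPKM. Of the 5 markers tested, 3 rose (CD68, LUM and KRT10), KRT14 fell (log2 fold change -1.22) and COL1A1 did not pass. The leukocyte markers PTPRC and CD3E were not in the table, and the part of these markers in the results was not tested. In bulk RNA, fewer cells that express a gene and less of its RNA per cell cannot be told apart.

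The tumour suppressor p53 is a transcription factor that is stabilised after DNA damage and other stresses, and binds response elements in or near the genes it activates. Its targets stop the cell cycle, repair DNA, change metabolism or start apoptosis, and some of them, above all MDM2, switch p53 off again.

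Since p53 reads its targets through their DNA, the promoters were searched for the p53 response element, a pair of 10-base repeats, 20 bases together, with the core C and G of each repeat kept and up to 3 letters off elsewhere. The element is close to palindromic, so a search of 1 strand finds matches on both. The RefSeq promoter table (GRCh38.p14, 250 bases before to 50 after each start) held 29 of the 35 genes. GADD45A, PHLDA3, TNFRSF10A, TNFRSF10B, RRM2B and TP53INP1 had no entry there. A match was found in 8 of the 29 genes, or 27.6%, and in 373 of the 27305 genes in the table, or 1.37% (392 of 35116 promoters, or 1.12%). The genes were chosen as p53 targets and regulators, so the contrast of these shares is not a test. A match describes these letters, not a bound site. Bases outside the window were not searched, so a gene without a match may still hold an element elsewhere. The 8 matches are printed as the letters found in these windows, on the strand of the gene. The element is in capitals, with up to 5 flanking bases in lower case.
DDB2 (chr11:47214969-47214988, + strand, 1 letter off): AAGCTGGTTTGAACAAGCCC
AEN (chr15:88621301-88621330, + strand, 2 letters off): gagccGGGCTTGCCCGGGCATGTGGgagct
FAS (chr10:88991304-88991333, + strand, 2 letters off): ctcctGGACAAGCCCTGACAAGCCAagcca
MDM2 (chr12:68808918-68808947, + strand, 2 letters off): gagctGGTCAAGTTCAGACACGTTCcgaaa
FDXR (chr17:74872995-74873020, - strand, 3 letters off): ggcccGGGCAGGAGCGGGCTTGCCCt
GDF15 (chr19:18386186-18386205, + strand, 3 letters off): AGCCATGCCCGGGCAAGAAC
PMAIP1 (chr18:59899806-59899835, + strand, 3 letters off): gtcggGAGCGTGTCCGGGCAGGTCGcgctc
SESN1 (chr6:109009013-109009042, - strand, 3 letters off): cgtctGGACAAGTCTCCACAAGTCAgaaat

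The element of DDB2 ran across its start, from 5 bases before it to 14 bases after it, and that of GDF15 lay 28 to 47 bases after a start. The other 6 lay upstream of a start. Except for PMAIP1, these starts lay inside the gene span that the expression table lists, by a few bases for AEN and far inside for SESN1 and GDF15. MDM2 is known to have such an internal promoter in its first intron. Of the 8 genes, 3 were higher in shALKBH5 cells (AEN, MDM2 and FDXR), 2 were lower (DDB2 and PMAIP1) and 3 did not pass the test (FAS, GDF15 and SESN1). These counts are near the shares over all genes tested, of which 34.7% were higher and 26.2% lower.

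To see whether the p53 targets changed when ALKBH5 was knocked down, the 3 input libraries of shALKBH5 cells were compared with the 3 of shCtrl cells. More of the 34 genes were higher in shALKBH5 cells than lower. With limma on log2(FPKM + 0.1) and a Benjamini-Hochberg adjusted p under 0.05 over all genes tested, 21 of the 34 rose (61.8%), 4 fell (11.8%) and 9 did not pass. Among all genes tested, 34.7% rose and 26.2% fell. The changes were mostly small, with a median log2 fold change of 0.24 over the 34 genes beside 0.09 over all genes tested. They ranged from -2.27 for PMAIP1 to 0.92 for BTG2. No gene rose by 1 or more on the log2 scale, and 3 genes (PMAIP1, TP53I11 and CCNG2) fell by more than that.

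In 22 of the 34 genes (64.7%) every shALKBH5 library was above every shCtrl library, and in 4 (11.8%) every shALKBH5 library was below, beside 38.0% and 29.0% of all genes tested. With a limit of 0.5 on the log2 fold change besides the adjusted p, 8 genes rose (23.5%) and 4 fell (11.8%), where the same limit called 18.5% of all genes higher and 15.8% lower. Of the 25 calls, 20 held in every one of the 13 other settings in which the gene was tested, 16 of them higher and 4 lower. CCNG2 was not tested in 1 setting, the filter at a mean of 1 FPKM, which removed it. The other 5 calls (TNFRSF10A, AEN, PERP, POLH and RRM2B) were lost in at least 1, and all 5 were lost when each library was rescaled by its median ratio. An exact permutation test of 3 against 3 libraries cannot go below a two-sided p of 0.1, so no single gene is given such a test.

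**Figure D1:**
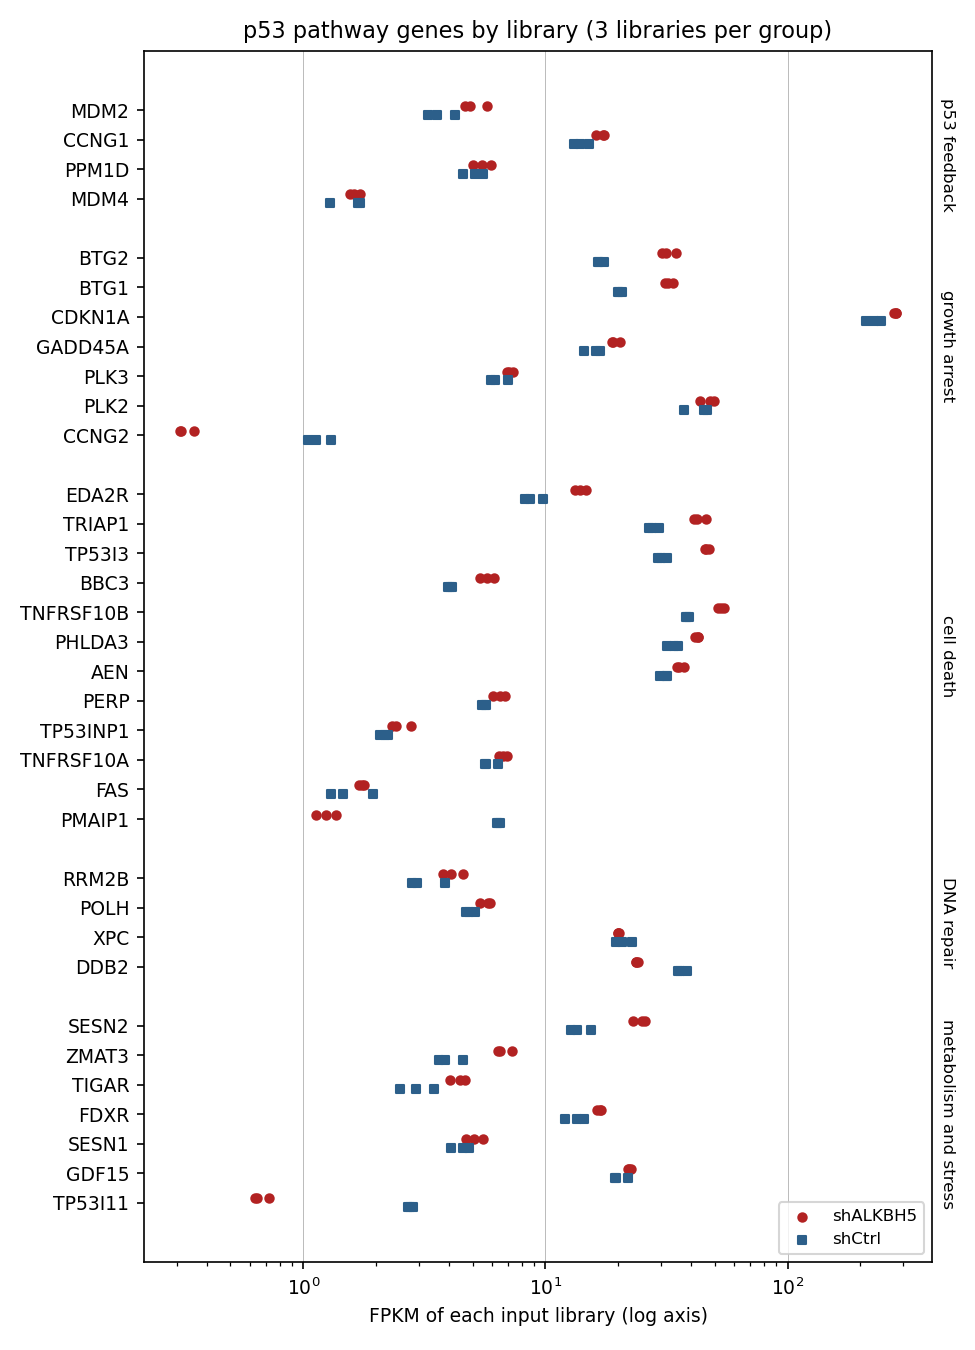
FPKM of each input library on a log axis for the 34 listed genes, grouped by role, with circles for the 3 shALKBH5 and squares for the 3 shCtrl libraries. CDKN1A lies farthest right in both groups, and the circles of CCNG2, PMAIP1, DDB2 and TP53I11 lie to the left of their squares.

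The levels of these genes covered a wide range. By mean FPKM over the 6 input libraries, 17 genes were at 10 FPKM or more, 16 were between 1 and 10, and CCNG2 was under 1. The median was 9.08 FPKM. CDKN1A was the highest, at 253 FPKM, followed by TNFRSF10B at 45.9 FPKM and PLK2 at 45.0 FPKM, which were close to each other.

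Among the 4 feedback genes, 2 rose and 2 did not pass the test, with a median log2 fold change of 0.19. MDM2 is the ubiquitin ligase that marks p53 for degradation. Its level was 5.73, 4.64 and 4.90 FPKM in shALKBH5 libraries and 3.26, 4.24 and 3.55 FPKM in shCtrl libraries. The lowest shALKBH5 library was just above the highest shCtrl library. The log2 fold change was 0.46 (SE 0.117, limma adjusted p = 0.0117), and it lay between 0.37 and 0.56 with any 1 library left out. CCNG1, cyclin G1, which works with a phosphatase to activate MDM2, rose from 14.1 ± 1.06 to 16.9 ± 0.715 FPKM (log2 fold change 0.27). MDM4, the MDM2 relative that blocks p53 without degrading it, had overlapping groups at 1.57 ± 0.239 FPKM in shCtrl cells and 1.63 ± 0.0732 FPKM in shALKBH5 cells. For PPM1D, the phosphatase WIP1 that reverses damage signalling, the values were 5.08 ± 0.486 and 5.46 ± 0.468 FPKM, again with overlap. The 95% interval of the log2 fold change was -0.23 to 0.36 for MDM4 and -0.11 to 0.32 for PPM1D.

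The 7 growth arrest genes had a median log2 fold change of 0.29, with 4 higher, 1 lower and 2 that did not pass. CDKN1A encodes p21, the inhibitor of cyclin-dependent kinases that carries most of the p53 arrest. It was at 275, 282 and 280.5 FPKM in shALKBH5 libraries and at 244, 210.1 and 227 FPKM in shCtrl libraries. All shALKBH5 libraries were higher, and they lay closer together than the shCtrl libraries. The rise was 1.23-fold, a log2 fold change of 0.30 (SE 0.0545, limma adjusted p = 0.00224).

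BTG2, an antiproliferative factor that recruits a deadenylase to mRNA, rose most of the 34 genes. It measured 30.2, 34.6 and 31.4 FPKM in shALKBH5 libraries against 17.4, 16.5 and 16.7 FPKM in shCtrl libraries. That is a 1.89-fold difference (log2 fold change 0.92, SE 0.0585, limma adjusted p = 1.23e-05), far wider than the spread within either group. Its relative BTG1 was at 31.1, 33.7 and 32.0 FPKM against 20.1, 19.9 and 20.8 FPKM. This rise of 1.59-fold (log2 fold change 0.67, SE 0.0453) also left a clear gap between the groups. GADD45A, a damage sensor that binds PCNA and p21, rose from 15.8 ± 1.25 to 19.4 ± 0.806 FPKM (log2 fold change 0.29).

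CCNG2, cyclin G2, moved the other way. Its level was 0.312, 0.354 and 0.309 FPKM in shALKBH5 libraries and 1.04, 1.13 and 1.30 FPKM in shCtrl libraries. The gene was low in every library, and its log2 fold change of -1.56 (SE 0.153, limma adjusted p = 9.97e-05) depended on the pseudocount, from -0.70 to -1.80 over the settings tried, but kept its direction and its call wherever it was tested. For the polo-like kinase PLK2 the groups overlapped at 43.0 ± 4.95 FPKM in shCtrl cells and 47.1 ± 3.32 FPKM in shALKBH5 cells. PLK3 overlapped as well, at 6.39 ± 0.546 and 7.15 ± 0.208 FPKM, with a limma adjusted p of 0.0823 that became 0.0112 without shCtrl replicate 1.

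Of the 13 cell death genes 12 were listed, and 9 rose, 1 fell and 2 did not pass. Their median log2 fold change was 0.27. The single gene that fell, PMAIP1, also changed most of all 34. PMAIP1 encodes NOXA, a BH3-only protein that neutralises the survival factor MCL1. It was at 1.24, 1.37 and 1.13 FPKM in shALKBH5 libraries and at 6.29, 6.48 and 6.39 FPKM in shCtrl libraries. The groups lay far apart, with a 4.84-fold lower level in shALKBH5 cells (log2 fold change -2.27, SE 0.0838, limma adjusted p = 1.15e-06). BBC3 encodes PUMA, another BH3-only protein under p53. It went in the opposite direction, from 4.04 ± 0.0864 to 5.75 ± 0.371 FPKM (log2 fold change 0.50, SE 0.0659). That change was just under the limit of 0.5 used above.

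The death receptors moved less than PMAIP1. EDA2R, a receptor for ectodysplasin, was at 13.9, 14.7 and 13.2 FPKM in shALKBH5 libraries and at 8.21, 9.75 and 8.63 FPKM in shCtrl libraries. It had the largest rise of the death genes, 1.57-fold, with no overlap (log2 fold change 0.65, SE 0.0745). TNFRSF10B, the TRAIL receptor DR5, rose from 38.5 ± 0.492 to 53.3 ± 1.47 FPKM (log2 fold change 0.47, SE 0.0372). TNFRSF10A, the TRAIL receptor DR4, was at 5.88 ± 0.401 and 6.69 ± 0.260 FPKM, and its call (limma adjusted p = 0.0452) was lost in 9 of the 13 other settings. FAS, the receptor of Fas ligand, had overlapping groups at 1.57 ± 0.338 and 1.74 ± 0.0400 FPKM, with a 95% interval of -0.18 to 0.51 for the log2 fold change. Without shCtrl replicate 2 it passed, at 0.32 (limma adjusted p = 0.0285).

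Among the other death genes, TP53I3, a quinone oxidoreductase known as PIG3, was at 47.4, 46.2 and 45.6 FPKM in shALKBH5 libraries and at 31.8, 29.2 and 30.0 FPKM in shCtrl libraries. The log2 fold change was 0.61 (SE 0.0446), with the groups well separated. TRIAP1, a small mitochondrial protein that protects cells from apoptosis, was at 41.1, 46.2 and 42.4 FPKM against 26.9, 27.5 and 29.5 FPKM. It also had no overlap and rose by a similar amount (log2 fold change 0.63, SE 0.0581). PHLDA3, an inhibitor of AKT, rose from 33.8 ± 1.82 to 42.3 ± 0.712 FPKM (log2 fold change 0.32). AEN, an apoptosis-enhancing nuclease, went from 31.0 ± 1.15 to 36.0 ± 1.19 FPKM, and PERP, a membrane protein of cell junctions and apoptosis, from 5.59 ± 0.110 to 6.46 ± 0.364 FPKM. Both calls rested on small changes, with log2 fold changes of 0.21 and 0.20. TP53INP1, a stress protein that also acts in autophagy, was at 2.16 ± 0.0780 and 2.51 ± 0.242 FPKM without overlap, but did not pass (limma adjusted p = 0.0894).

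**Figure D2:**
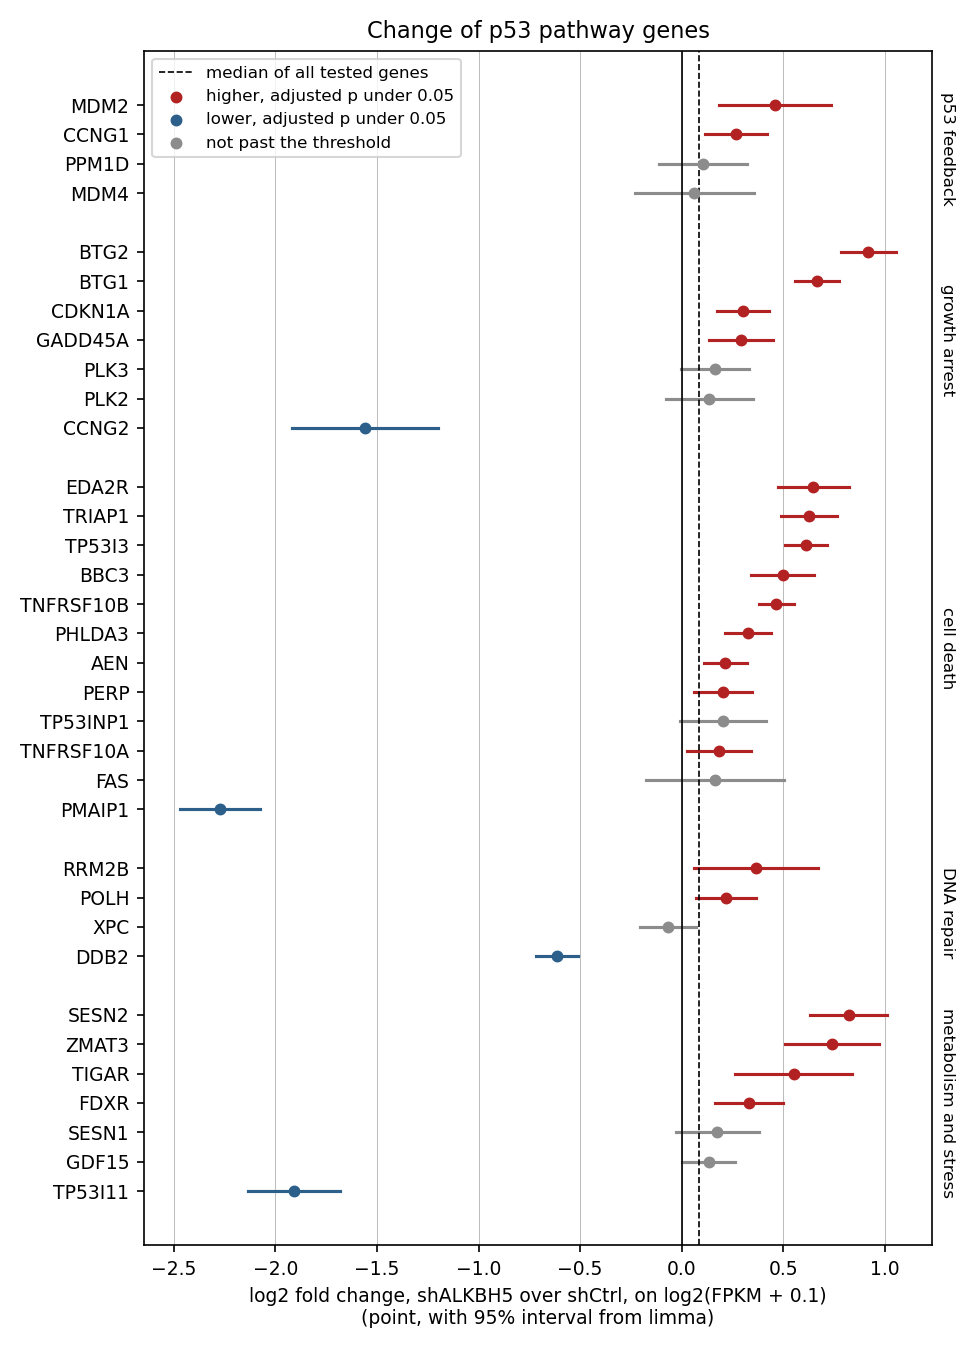
Log2 fold change of each of the 34 genes, shALKBH5 over shCtrl, on the log2(FPKM + 0.1) scale, with 95% intervals from limma and a dashed line at the median of all genes tested (0.09). Most points lie between 0 and 1, and the 4 lower genes PMAIP1, TP53I11, CCNG2 and DDB2 stand to the left.

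The 4 DNA repair genes were mixed, with 2 higher, 1 lower and 1 that did not pass, and a median log2 fold change of 0.07. DDB2, the damage-binding protein that finds ultraviolet lesions for nucleotide excision repair, was at 24.1, 23.7 and 23.6 FPKM in shALKBH5 libraries and at 38.4, 35.2 and 35.9 FPKM in shCtrl libraries. It fell by 0.61 on the log2 scale (SE 0.0447, limma adjusted p = 2.35e-05), and every shALKBH5 library was below every shCtrl library. DDB2 carried the promoter match closest to the p53 element, with 1 letter off. XPC, which works in the same repair pathway, had overlapping groups at 20.99 ± 1.56 FPKM in shCtrl cells and 19.98 ± 0.210 FPKM in shALKBH5 cells. POLH, the translesion polymerase eta, was at 4.88 ± 0.198 and 5.69 ± 0.274 FPKM (log2 fold change 0.22, limma adjusted p = 0.0194). RRM2B, the p53-inducible subunit of ribonucleotide reductase, was at 3.20 ± 0.565 and 4.13 ± 0.402 FPKM, and its groups overlapped although it passed the test (limma adjusted p = 0.0428). Both higher calls of this group were lost on median ratio rescaling, while that of DDB2 held.

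The 7 genes of metabolism and stress had a median log2 fold change of 0.33, with 4 higher, 1 lower and 2 that did not pass. SESN2, sestrin 2, an inhibitor of mTORC1 that senses leucine, was at 23.0, 25.7 and 25.1 FPKM in shALKBH5 libraries and at 15.5, 13.5 and 12.7 FPKM in shCtrl libraries. After BTG2 it rose most, 1.77-fold (log2 fold change 0.82, SE 0.0807, limma adjusted p = 9.93e-05). Its relative SESN1 had overlapping groups, at 4.49 ± 0.375 FPKM in shCtrl cells and 5.08 ± 0.404 FPKM in shALKBH5 cells. ZMAT3, an RNA-binding zinc finger protein, was at 7.31, 6.52 and 6.40 FPKM in shALKBH5 libraries against 3.63, 4.57 and 3.84 FPKM. The log2 fold change was 0.74 (SE 0.0986), with no overlap.

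TIGAR, a phosphatase that lowers glycolysis, was at 4.66, 4.42 and 4.02 FPKM in shALKBH5 libraries and at 2.51, 3.48 and 2.93 FPKM in shCtrl libraries. The groups were separated by a narrower gap, with a log2 fold change of 0.55 (SE 0.122, limma adjusted p = 0.00594). FDXR, the mitochondrial ferredoxin reductase, rose from 13.4 ± 1.26 to 16.8 ± 0.313 FPKM (log2 fold change 0.33). GDF15, a secreted stress cytokine, was at 20.3 ± 1.45 and 22.2 ± 0.226 FPKM. It did not pass the test (limma adjusted p = 0.0768), although no library of one group crossed into the other, and it passed without shCtrl replicate 1 (0.00415).

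TP53I11, a p53-induced membrane protein of little known function, fell. It was at 0.633, 0.641 and 0.721 FPKM in shALKBH5 libraries and at 2.71, 2.76 and 2.84 FPKM in shCtrl libraries. The difference was 3.76-fold (log2 fold change -1.91, SE 0.0957, limma adjusted p = 4.21e-06), and the log2 fold change ran from -1.18 to -2.04 over the settings tried, with the call kept. With PMAIP1, CCNG2 and DDB2 it made up the 4 genes that fell, each with no overlap between groups.

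The genes upstream of p53 were described from a separate list of 23, of which 20 were tested. Of these kinases, acetyltransferases, ligases and relatives of p53, 2 were higher (10%), 5 lower (25%) and 13 did not pass, beside 34.7% and 26.2% of all genes tested. The median log2 fold change was -0.10, beside 0.09. Median ratio rescaling gave 1 higher and 8 lower, beside 29.2% and 30.0% of all genes tested. HIPK2, a kinase that phosphorylates p53 after severe damage, fell from 7.78 ± 1.36 to 2.91 ± 0.156 FPKM (log2 fold change -1.37, limma adjusted p = 6.06e-05). TP73, the p53 relative that shares many of its targets, fell from 1.05 ± 0.0188 to 0.368 ± 0.0947 FPKM. Its log2 fold change was -1.31, and from -0.58 to -1.51 over the settings in which it was tested, with the call kept. The filter at 1 FPKM removed it.

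A further list of 28 p53 targets outside the 35 held 26 listed genes and 20 that could be tested. In it 7 were higher (35%), 7 lower (35%) and 6 did not pass, beside 34.7% and 26.2% of all genes tested. The median log2 fold change was 0.08, beside 0.09 over all genes tested. Genes that rose by at least 1 on the log2 scale included SCO2, an assembly factor of cytochrome oxidase (1.22), and IGFBP3, a binding protein of insulin-like growth factors (1.00). GTSE1, a mitotic protein that restrains p53, fell from 8.11 ± 0.263 to 1.41 ± 0.134 FPKM (log2 fold change -2.45). GADD45B, a relative of GADD45A, fell as well (log2 fold change -1.19).

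The far end of the p53 and p21 branch is a set of cell cycle genes that the DREAM complex shuts down when p21 is high. All 20 genes of that list fell, with a median log2 fold change of -1.82 and a range from -2.46 to -0.55, beside 26.2% lower and a median of 0.09 over all genes tested, and all 20 calls held in each setting tried. The largest changes were those of CDC25C, the phosphatase that triggers mitosis (-2.46, and -1.497 to -2.667 over the settings), FOXM1, the transcription factor of the G2 genes (-2.23), CENPA, the centromeric histone (-2.11), and TOP2A, a topoisomerase (-2.06). BIRC5, survivin, followed at -1.98 and MYBL2, a transcription factor of mitotic genes, at -1.92. CHEK1, the least changed gene of this list, is also in the upstream list. FOXM1 was at 9.62 ± 0.134 FPKM in shALKBH5 cells and 45.6 ± 2.31 FPKM in shCtrl cells. CDKN1A rose by 0.30 on the log2 scale in the same libraries, and a link between these changes was not tested.

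**Figure D3:**
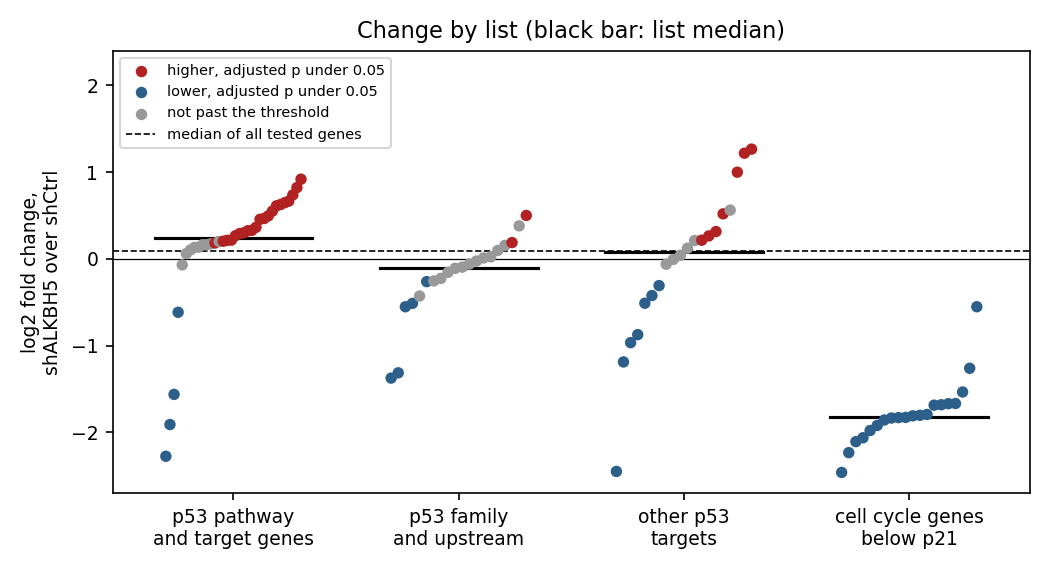
Log2 fold change (shALKBH5 over shCtrl) of each tested gene in 4 lists, one point per gene in order of its value, with the list median as a bar and the median of all genes tested (0.09) as a dashed line. The p53 pathway and target genes center at 0.24, the upstream genes at -0.10, the other p53 targets at 0.08, and the cell cycle genes at -1.82, all of them below 0.

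The m6A mark on these transcripts was then read from the peak lists. A peak is a stretch where IP reads exceed input reads, with a fold enrichment from the authors' peak caller, and each group had 1 list, so no peak value has a replicate error. The transcripts of these genes were widely marked in both groups. Of the 34 listed genes, 33 (97.1%) had at least 1 peak in the shALKBH5 list and 32 (94.1%) in the shCtrl list, beside 86.0% and 85.5% of all genes tested. CCNG1 had none in either list, and SPATA18, which the expression table lacked, had none as well. RRM2B had 1 peak, of 1.79-fold, in the shALKBH5 list only. With peaks of at least 2-fold and an FDR of at most 0.01, 31 genes had a peak in each list, beside 78.4% and 77.9% of all genes tested.

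The genes held 79 peaks in the shALKBH5 list and 87 in the shCtrl list. Most were annotated to the 3'UTR, 68.4% (95% Wilson interval 57.5 to 77.6%) and 67.8% (57.4 to 76.7%), where the lists as a whole had 45.5% and 46.2%. The whole lists include non-coding RNAs, which none of these genes are, so the shares do not have the same base. These are shares of deposited labels, and a label need not give the position of the peak. The PHLDA3 peak at the 5' end of the gene was labelled 3'UTR in the shCtrl list and 5'UTR in the shALKBH5 list. A FDXR peak near the 5' end was labelled 3'UTR in the shALKBH5 list. Peaks in the 5'UTR made up 22.8% and 20.7%, beside 16.6% and 17.0% of all peaks. POLH had the most peaks, 7 in the shALKBH5 list and 9 in the shCtrl list, nearly all in its long 3'UTR.

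Most peaks were at the same place in both groups. With an overlap of at least 1 bp on the same strand, 74 of the 79 shALKBH5 peaks were shared, or 93.7% (95% Wilson interval 86.0 to 97.3%). In the other direction it was 75 of the 87 shCtrl peaks, or 86.2% (77.4 to 91.9%). Over all peaks in the lists the shares were 78.1% and 81.3%. The intervals cover counting error only. Peaks of 1 gene share its RNA and are not independent. A few peaks spanned over 10000 bases including introns (7 and 5), and 1 peak each of BTG1 and TIGAR ran past the gene in at least 1 list.

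To compare heights, peaks that overlapped by at least 50% of both were paired. This gave 55 pairs in 29 of the genes. The median log2 ratio of fold enrichment, shALKBH5 over shCtrl, was -0.06, beside -0.05 over all 23261 pairs. The fold was lower in shALKBH5 cells in 33 of the 55 pairs (60.0%), beside 54.5% of all pairs. It differed beyond 1.5 times in 9 pairs (16.4%), beside 28.7% of all pairs and 23.6% of pairs in genes tested for expression. Among the 9, shALKBH5 cells had the higher fold in 5 and the lower fold in 4.

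**Figure D4:**
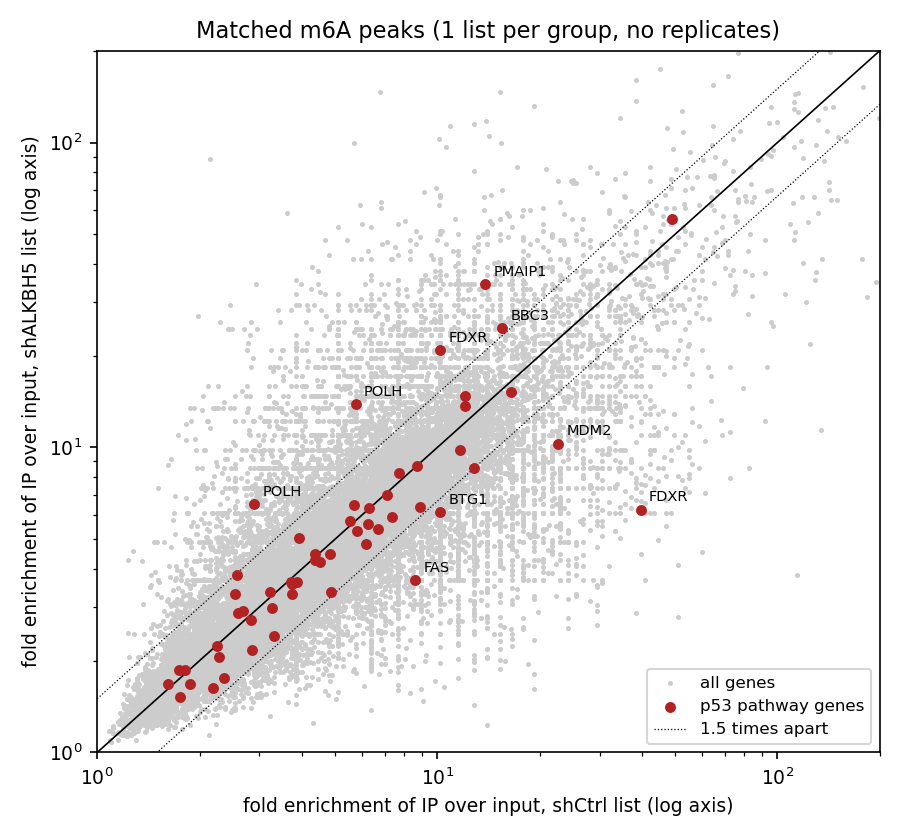
Fold enrichment of IP over input for matched m6A peaks, shCtrl list on the horizontal and shALKBH5 list on the vertical log axis, with all pairs in grey, the 55 pairs of the p53 pathway genes in red and dotted lines at 1.5 times. The red points follow the diagonal except for 9, labelled with their genes, of which POLH and FDXR have 2 each.

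CDKN1A, the most abundant transcript of the set, had only 1 small peak, 61 bases at the very end of its 3'UTR (chr6:36687277-36687337), of 1.52-fold in shALKBH5 and 1.75-fold in shCtrl cells. This is at the low end of the folds in the set. By fold enrichment the highest peak of the set was in PHLDA3, at its 5' end, of 56.2-fold (chr1:201468553-201469237) and 49.1-fold (chr1:201468345-201469237). The 3'UTR peak of BBC3 was of 24.6-fold in shALKBH5 and 15.5-fold in shCtrl cells (chr19:47220822-47222102 and chr19:47220852-47222102). BBC3 messenger RNA was higher as well. In the pairs of PMAIP1, MDM2 and BTG1 described below, fold and messenger RNA went in opposite directions. A relation between fold and messenger RNA was not tested.

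PMAIP1, whose level fell most, was covered by a peak over most of the gene (chr18:59899996-59903257 and chr18:59899996-59903557). Its fold was 34.3 in shALKBH5 cells and 13.8 in shCtrl cells. The input level was 1.24 FPKM in shALKBH5 and 6.39 FPKM in shCtrl cells, and the log10 p of the peak was weaker in shALKBH5 cells, -50.9 against -358. The part of the lower input in the higher fold was not tested.

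In MDM2 a 439-base peak in the 3'UTR (chr12:68841946-68842384) had the same borders in both lists, with 10.3-fold in shALKBH5 and 22.7-fold in shCtrl cells. A peak that surrounds it differed less, at 9.79-fold and 11.7-fold. FDXR had a pair of peaks that went in opposite directions. That near its 5' end was of 6.25-fold in shALKBH5 and 39.6-fold in shCtrl cells, and that inside the gene was of 20.8-fold and 10.2-fold. Their log10 p ran from -2.49 to -10.3, weaker than those of the MDM2 peaks. The strongest FDXR pair by p-value was nearly alike, at 4.28-fold in shALKBH5 and 4.38-fold in shCtrl cells. TIGAR had a 3'UTR peak of 34.3-fold in shALKBH5 cells (log10 p -8.52) that overlapped one of 5.75-fold in shCtrl cells (log10 p -1.91) by less than 50% of its length, so they made no pair.

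The other pairs beyond 1.5 times were in BTG1, FAS and POLH. A 3'UTR peak of BTG1 was of 6.15-fold in shALKBH5 and 10.2-fold in shCtrl cells, while its stronger peak by p-value was alike in both (7.00 and 7.10-fold). The 5'UTR peak of FAS was of 3.67-fold and 8.62-fold. Both POLH pairs beyond this limit were higher in shALKBH5 cells, at 6.53-fold against 2.90-fold and 13.9-fold against 5.75-fold. Their log10 p was -8.99 and -8.67 in shALKBH5 cells and -2.76 and -3.86 in shCtrl cells. The strongest POLH pair by p-value was nearly alike, at 3.62-fold in shALKBH5 and 3.88-fold in shCtrl cells. Among pairs with a log10 p of at most -20 in both lists, 4 of 37 (10.8%) differed beyond 1.5 times, those of BBC3, BTG1, MDM2 and PMAIP1, beside 13.4% of all 10226 pairs at that limit. At the same limit the fold was lower in shALKBH5 cells in 27 of the 37 (73.0%), beside 58.2% of all.

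The authors' table of differential peaks held 15 peaks in 11 of the 34 genes (32.4%), beside 32.7% of all genes tested. These were 3 peaks in POLH, 2 each in TIGAR and ZMAT3, and 1 each in MDM2, FAS, AEN, PERP, PLK2, SESN2, TP53I3 and TRIAP1. By position, the SESN2 and TP53I3 peaks reached the end of the gene, and the MDM2 peak was the 439-base peak described above. The table's own fold changes and p-values were not used. In the lists, the matched 3'UTR peak of TP53I3 was of 5.90-fold in shALKBH5 and 7.38-fold in shCtrl cells, and that of TRIAP1 of 4.82-fold and 6.19-fold. PERP had 1 peak of 2.17-fold and 2.85-fold.

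**Figure D5:**
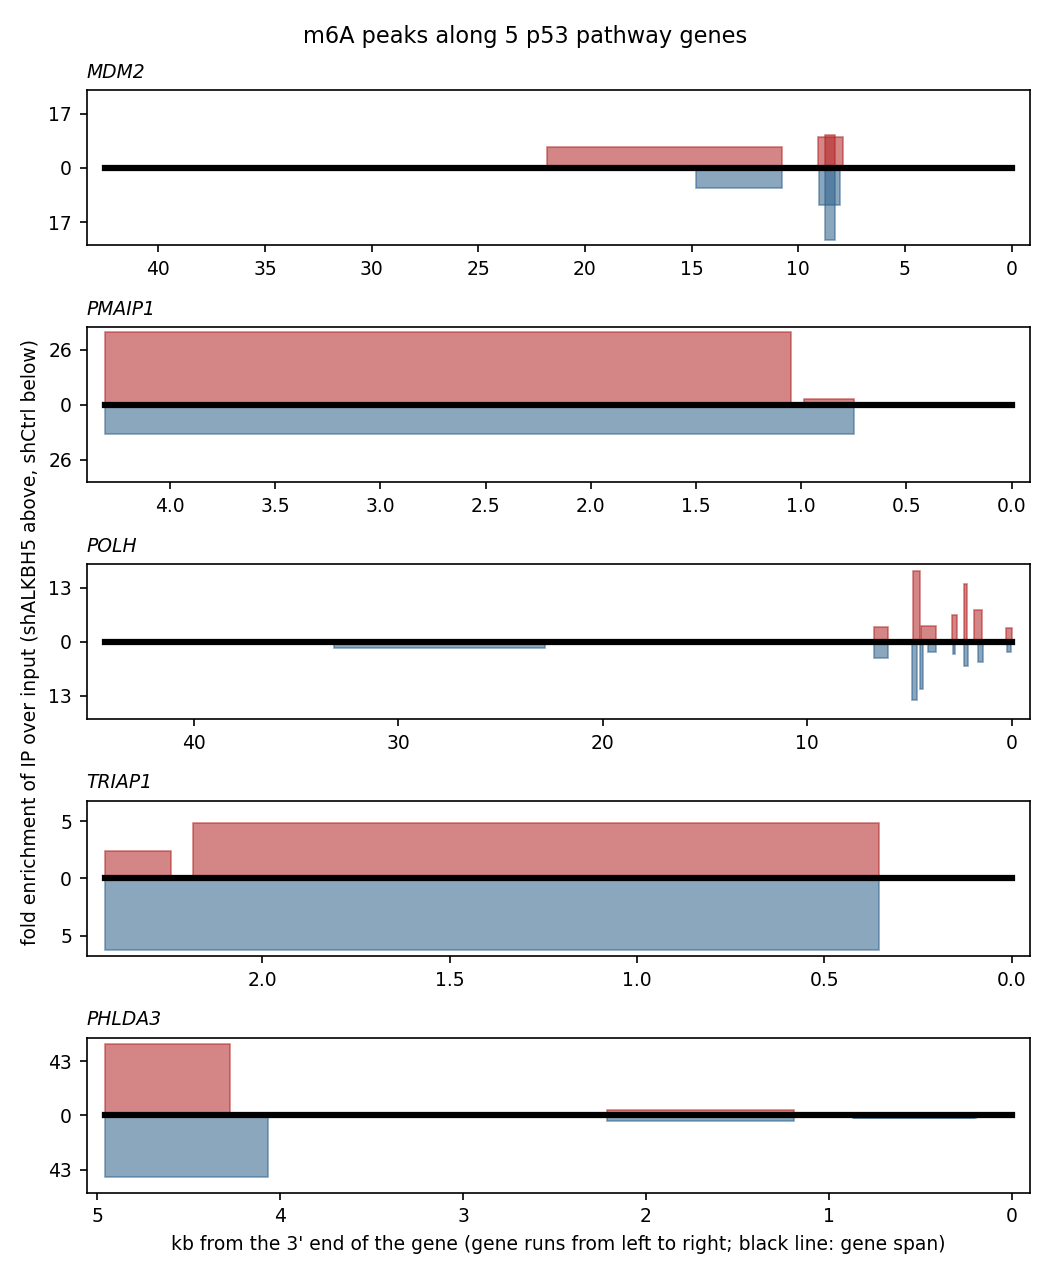
m6A peaks along MDM2, PMAIP1, POLH, TRIAP1 and PHLDA3, with the distance from the 3' end of the gene in kb on the horizontal axis and fold enrichment on the vertical axis, shALKBH5 above and shCtrl below the gene line. Boxes show whole peak spans with introns, and the tallest box of PMAIP1 stands at 34.3 above and 13.8 below.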

How the data were processed

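RNA-Seq input and m6A IP libraries of A375 cells were assigned to shALKBH5 or shCtrl from the labels. Expression was deposited as FPKM per input library, computed by the authors with an aligner, counter and annotation not given in the sources used here. For each group the authors also deposited a single list of m6A peaks. Their peak caller gave each peak a ratio of IP over input (fold enrichment), and the deposited log10 p and log10 FDR are treated as a score. Whether replicates were pooled is not stated. The labels name the mouse build mm10, but the listed positions of 34 of 34 genes overlapped RefSeq GRCh38.p14, which is used for coordinates. Columns of the authors' own fold changes, p-values and q-values were not used, and 0 columns were left unassigned. Libraries were made with dUTP, but whether counting used strand is not stated.

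The filter kept genes whose average over the 6 inputs reached 0.5 FPKM. Their log2(FPKM + 0.1) was fitted in limma 3.58.1 (R 4.3.3) by lmFit, then eBayes with a trend, two-sided, with Benjamini-Hochberg adjustment over all 12985 genes. This replaces the count test of the study because no counts were used here. Fold changes on this scale understate those of low genes. Low FPKM values showed no steps of whole reads (most common ratio 0.152% and 0.155% of low values), so depth is unknown. On simulated data of 12985 genes, 200 were changed. Of those with a log2 fold change of 0.5, 1 and 1.5, 47.9%, 85.1% and 92.7% were recovered, and 2.63% of calls were false. In the real data 34.7% of genes were called higher and 26.2% lower, so these rates do not carry over to them. Changes smaller than 0.5 were not simulated. Libraries of 1 group correlated at 0.981 to 0.984 across genes, those of different groups at 0.929 to 0.934.

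The 35 genes and all lists were chosen with earlier results of these data known. All 35 genes are named, with the value in each library where the adjusted p was under 0.05 and the log2 fold change at least 0.5 in size, and for CDKN1A and MDM2. Of the other lists, genes past 1 are named, at most 6 per list. Further genes under these rules are not reported here. Peaks named are those in 1 list only, in the table of differential peaks, or among the highest folds. Peaks of CDKN1A, pairs beyond 1.5 times, marker genes and values of genes beside a result were named after their values were seen. Peak starts were changed to count from 1. Python 3.11.15, pandas 2.3.3, numpy 2.4.6, scipy 1.17.1 and matplotlib 3.10.9 were used. Other settings tried were the pseudocounts 1 and 0.01, all genes without a filter, a cutoff of 1 FPKM, median ratio rescaling, the replicate number as a block, no trend, leaving out each library, stricter peaks and a reciprocal overlap of 50%.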

Additional observations from a re-analysis of the deposited data

How the results depend on the processing

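No called value changed direction in the settings run, and of the 84 values of results that answer a comparison, 80 stayed near the value reported and 4 moved, with none changing sign. The median log2 fold change of the 34 genes was 0.17 after median ratio rescaling, against 0.24, and 0.23 to 0.28 with 1 library left out. With 1 library left out, the count of higher genes was 17 to 22. In those runs 29.4% to 35.4% of all genes tested were higher and 23.2% to 26.1% lower. After rescaling the count was 16, where 29.2% of all genes tested were higher and 30.0% lower and their median was 0.015 instead of 0.087. The count of lower genes was 4, or 3 with the filter at 1 FPKM, which removed CCNG2. Leaving out any 1 library except shCtrl replicate 2 lost the call of at least 1 of TNFRSF10A, PERP, POLH and RRM2B (limma adjusted p = 0.0593 to 0.145). The upstream list had 5 to 9 calls and the other targets 12 to 14 with 1 library left out, as over the other settings. Shared peaks fell to 69.6% of the shALKBH5 and 63.2% of the shCtrl list at 50% reciprocal overlap, beside 51.6% and 53.7% of all peaks. Stricter peaks gave 90.8% and 92.4%, beside 82.1% and 83.6% of all peaks at that limit. The replicate number as a block lost the calls of PERP, TNFRSF10A and RRM2B (limma adjusted p = 0.0505, 0.0766 and 0.0702), and no other call of the 34 genes changed under it. Same-numbered libraries deviated from their group means with correlations of 0.018, -0.046 and 0.059 across genes. These values show no clear pairing by number, and they cannot exclude a weak one. The cause of these changes was not tested. With 3 libraries per group the precision is limited, the read depth is unknown, and peak values carry no replicate error.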
